A study of Homo sapiens with 12 samples.

Results

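Tandem 3′ splice sites that lie 3 nt apart were examined in RNA sequencing libraries of A549 cells. They were taken from the deposited table of alternative 3′ splice sites as the events whose long and short exons differed by 3 nt in length. An event was kept in a comparison when each of its 6 libraries held at least 10 reads of the 2 forms together. In at least 1 of the 4 comparisons 598 events passed, of 854 events with this gap and of 6437 alternative 3′ splice site events in all. These 598 events lay at 561 pairs of acceptors in 525 genes, since the same pair is listed again where the upstream exon differs, and 34 genes held more than 1 pair. The filter kept 552 events for depletion in untreated cells, 535 for depletion in Cisplatin-treated cells, 538 for Cisplatin in control cells and 523 for Cisplatin in depleted cells. In all 4 comparisons it kept 488 events at 477 pairs. Just inside the limit, 4 to 14 events per comparison had 10 reads in their poorest library, and just outside it 4 to 9 events had 9 reads.

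The study asked how the loss of RNF113A alters splicing in lung cancer cells exposed to a DNA-damaging drug. A549 is a line of human lung adenocarcinoma cells, and all 12 libraries came from this 1 line. Cells were infected with a lentivirus for shControl, a control hairpin, or for shRNF113A, which targets RNF113A, were selected with puromycin at 1 µg/ml for 4 days, and were left untreated or given Cisplatin at 25 µg/ml for 20 h, as the labels state. The study's text gives the Cisplatin of its other experiments in micromolar units, so the unit of the dose is uncertain. Each of the 4 groups had 3 libraries. The study's methods call them biological replicates and do not say how the cultures were separated, so p-values measure the spread between these libraries. Bulk libraries also cannot tell fewer cells of a kind from less RNA per cell.

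RNF113A itself was only partly lowered at the mRNA level. Its normalised read counts were 743, 707 and 725 in shControl cells and 555, 572 and 612 in shRNF113A cells. With Cisplatin they were 1144, 1047 and 997 in shControl cells and 908, 855 and 1047 in shRNF113A cells, and these groups overlapped. The log2 fold change upon depletion was −0.31 ± 0.09 (SE) in untreated cells (edgeR quasi-likelihood test, Benjamini-Hochberg adjusted p = 0.0247). This call was lost without shControl untreated replicate 1 (adjusted p = 0.0680) or 3 (0.0563), or without shRNF113A untreated replicate 1 (0.0940) or 2 (0.0770). In Cisplatin-treated cells the log2 fold change was −0.14 (adjusted p = 0.233). Cisplatin raised RNF113A by 0.57 in control cells (adjusted p = 2.1e-04) and by 0.74 in depleted cells (adjusted p = 2.3e-05).

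Libraries held 33859097 to 56071514 read pairs, of which 14 to 22.6% were not assigned to a gene, and the 3 libraries of Cisplatin-treated depleted cells had the highest such shares (21.8 to 22.6%). The 477 pairs of acceptors drew 76509 to 135853 reads per library, with a median of 61 to 123 reads per pair, and the 3 lowest totals (76509 to 89062) fell in the same 3 libraries. Epithelial keratins were abundant, with 70185 to 269267 normalised counts of KRT8. Markers of the normal alveolar cell were nearly absent, with NKX2-1 at 20.6 or less and SFTPC at 3.83 or less in every library. The leukocyte marker PTPRC was at 4.63 or less. COL1A1, a fibroblast collagen, was present at 121 to 1266 normalised counts.

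At a 3′ splice site the spliceosome reads a branch point, a stretch of pyrimidines and a terminal AG. U2AF binds the pyrimidine stretch and the AG, SF1 and later SF3B1 of the U2 particle bind around the branch point, and second-step factors such as SLU7 and PRPF18 help to place the AG for exon ligation. Where a second AG follows directly, as in the motif NAGNAG, either can be used. Use of the upstream AG keeps 3 more bases in the mRNA and use of the downstream AG removes them, which in coding sequence adds or removes 1 residue or swaps residues while the frame is kept. RNF113A is a RING finger protein that is found in the activated spliceosome.

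The sequences of 9 of the best-read pairs of intermediate usage are shown because their levels were measured most precisely. Each is 30 bases of GRCh37, the build of the files (hg19), read 5′ to 3′ on the gene's strand. The capitals mark the 6 bases of the tandem acceptor: the first 3 end the intron when the upstream AG is used, and the last 3 are then kept in the exon.
PCBP2 (chr12:53862540-53862569, plus strand): ttgctctcttctgtctttTAGCAGgtttgg
NOLC1 (chr10:103916922-103916951, plus strand): aattggtccaatctacctCAGCAGgtctgc
CAST (chr5:96100904-96100933, plus strand): tcagcattatttacttttCAGCAGagtgac
SHC1 (chr1:154938548-154938577, minus strand): gtagagcctccctttcctCAGCAGgcagag
H2AFY (chr5:134696289-134696318, minus strand): tgacccttccgtctgtgcAAGAAGaagcag
LINC00493 (chr20:18549859-18549888, plus strand): tttctcttaatggtgataAAGTAGaccaaa
FKBP8 (chr19:18649238-18649267, minus strand): tgcctgctcccacccaacTAGCAGgagccc
EPN1 (chr19:56204296-56204325, plus strand): cagaacatcctgaccccaCAGCAGccgggg
GSPT1 (chr16:11990634-11990663, minus strand): agttaaaatgtctttcttCAGTAGaaaatg

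Of the 561 pairs, 554 had AG at both acceptors, which the rule did not require. The most frequent hexamers were CAGCAG, at 227 pairs, and TAGCAG, at 105. Both acceptors were annotated in 552 pairs. The optional 3 bases were coding in 507 pairs, and they fell inside a codon at 312 pairs and between codons at 172. This frame was taken from coding exons that begin at either acceptor, so some pairs with a frame have optional bases outside annotated coding sequence. The frame differed between transcripts at 45 pairs and no coding frame was annotated at 32. In the 18 bases before the hexamer a median of 77.8% were pyrimidines, and the shortest intron that ended at a pair had a median length of 1320 nt.

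Inclusion is given as the percentage of upstream AG use, from the reads of the long form divided by 75 nt and of the short form divided by 72 nt, the effective lengths in the table. Over the 477 pairs the median inclusion was 66.5%, with quartiles of 36 and 89.5% and a range of 0.121 to 99.9%. The upstream AG was used more than the downstream AG at 309 pairs (64.8%). Both forms were common at most pairs: 387 (81.1%) lay between 5 and 95%, 23 below 5% and 67 above 95%. Of the 3292 other alternative 3′ splice site pairs, whose acceptors were a median of 55 nt apart, 1304 (39.6%) lay between 5 and 95%, with a median of 81.0%. These shares are a description and the difference was not tested.

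Median inclusion differed little between the 4 groups. Library medians over the 477 pairs were 66.9, 67.2 and 67.9% in shControl untreated cells (67.3 ± 0.49, SD, n = 3) and 67.1, 67.2 and 65.2% in shRNF113A untreated cells (66.5 ± 1.13). With Cisplatin they were 66.5, 65.4 and 67.3% in shControl cells (66.4 ± 0.95) and 66.4, 66.3 and 65.8% in shRNF113A cells (SD 0.36). Every library lay within 65.2 to 67.9%, and the groups overlapped in each of the 4 comparisons. Pearson's r between the group means, across the 477 pairs, was 0.987 to 0.990, with the pairs sharing sequence and library in all groups. The 4 group means of a pair spanned a median of 4.85 points, the 12 libraries a median of 14.2 points. The group means stayed within 10 points at 393 pairs (82.4%) and spanned more than 20 points at 8.

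**Figure D1:**
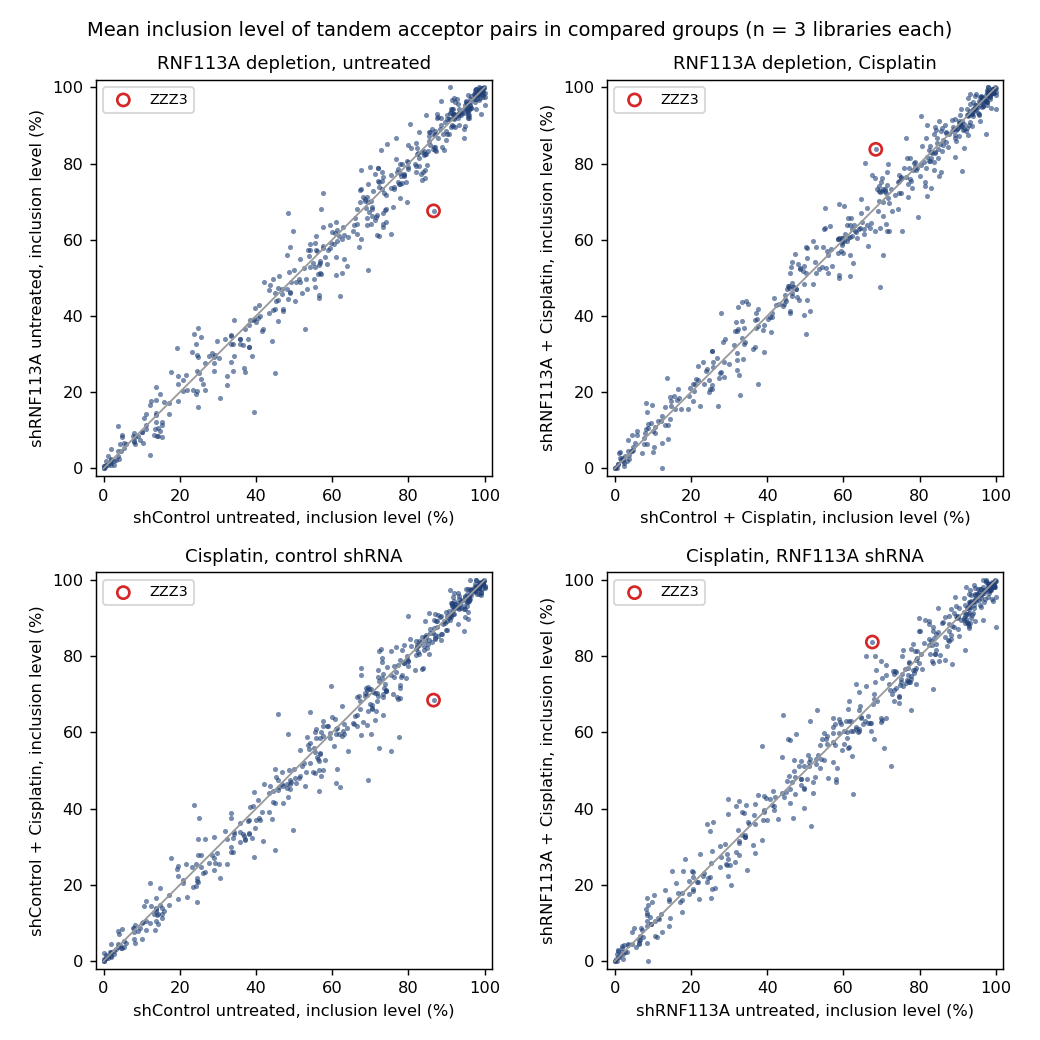
Mean percentage of upstream AG use (inclusion level, n = 3 libraries a group) at the 477 tandem acceptor pairs, 1 panel for each of the 4 comparisons, with 1 point per pair, the line of equal use and ZZZ3 ringed. The points follow the line in every panel (r of 0.987 to 0.990 between group means), and ZZZ3 lies off it, at 86.6% in shControl untreated and 67.6% in shRNF113A untreated cells.

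Usage differed with the base before each AG, which is given as a description across pairs. Pairs with the hexamer CAGCAG had a median inclusion of 61.0% (193 pairs) and TAGCAG 71.8% (96 pairs), while AAGCAG had 28.5% (51 pairs). A downstream AAG was used little: the median inclusion was 94.5% at CAGAAG (41 pairs) and 90.6% at TAGAAG (20 pairs). When both acceptors were AAG, the median was 67.0% (10 pairs), and with AAG upstream and TAG downstream it was 34.4% (10 pairs). Where the other AG followed a C, a G before the AG went with the lowest median use of that acceptor. Inclusion had a median of 4.99% at GAGCAG (5 pairs, 2 of them above 50%) and 98.6% at CAGGAG (5 pairs). It was 50.8% at GAGAAG (2 pairs, 16.8 and 84.8%) and 9.64% at GAGGAG (2 pairs).

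By the upstream base alone, the median inclusion was 72.2% for C (257 pairs), 74.5% for T (131), 39.8% for A (74) and 9.43% for G (11). By the downstream base alone it was 60.4% for C (345 pairs), 67.4% for T (43), 92.1% for A (73) and 98.5% for G (12). These medians moved little between the groups. The 4 group medians ranged from 61.1 to 63.2% at CAGCAG, from 70.0 to 72.7% at TAGCAG, from 26.9 to 32.5% at AAGCAG and from 93.8 to 95.8% at CAGAAG. The order of these 4 hexamers was the same in every group.

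**Figure D2:**
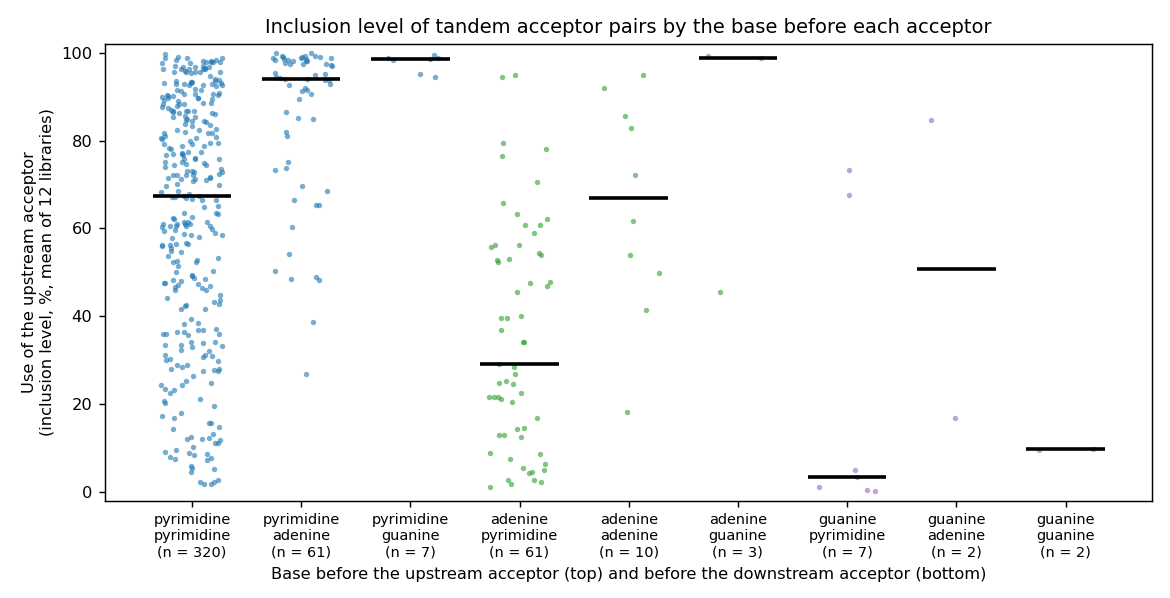
Percentage of upstream AG use at tandem acceptor pairs with AG at both acceptors, by the kind of base before the upstream AG (top label) and before the downstream AG (bottom label). Each point is the mean of the 12 libraries at 1 pair and each bar a median, which is 67.4% with a pyrimidine at both, 94.0% with a pyrimidine then adenine and 29.1% with adenine then a pyrimidine.

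Other features of the pairs were tied less closely to the level. Median inclusion was 66.4% at the 265 pairs whose optional bases fell inside a codon and 71.7% at the 149 where they fell between codons. It was 68.4% at 439 coding pairs and 51.2% at 38 untranslated or noncoding pairs. Spearman's rho across the 477 pairs was 0.0486 for inclusion against intron length and 0.00307 against the pyrimidine share before the hexamer. Long and short introns had medians of 68.5 and 61.4%, and pairs with more and fewer pyrimidines 61.7 and 70.1%.

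At 4 pairs the optional bases were TAG, and the annotated coding exon that begins at 1 of the acceptors starts with a whole codon, so that TAG would be read as a stop codon in that frame. The annotation places these optional bases outside coding sequence. Optional bases that fall inside a codon were not searched for stops. The 4 pairs are printed as above, because their sequence separates them from the rest.
ADAM15 (chr1:155028242-155028271, plus strand): gataattcttcttgtccaTAGTAGaggcgg
TIMM44 (chr19:7999118-7999147, minus strand): ccctctctgtgtctgtctCAGTAGagcctt
MKLN1 (chr7:131083976-131084005, plus strand): catacttactctgtgttcTAGTAGtaccgt
ERCC2 (chr19:45871996-45872025, minus strand): ccctgccccccaactttgGAGTAGgtgatt
All 4 had low inclusion. Over all libraries, 43 of 2445 reads used the upstream AG at ADAM15, which encodes a membrane metalloprotease (1.76%, exact binomial 95% interval 1.28 to 2.36%). The counts were 47 of 1817 at TIMM44, a part of the mitochondrial import motor (2.59%, 1.91 to 3.43%), and 30 of 1372 at MKLN1 (2.19%, 1.48 to 3.11%). At ERCC2, the helicase of nucleotide excision repair, they were 8 of 585 (1.37%, 0.592 to 2.68%). The intervals cover counting error only. For comparison, the median inclusion was 76.8% over the 18 CAGTAG pairs, 75.8% over the 13 TAGTAG pairs and 34.4% over the 10 AAGTAG pairs, counts that include the stop codon pairs of that hexamer. ALG8, the other GAGTAG pair beside ERCC2 and not among these 4, was lower than all of them, at 0.382%.

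TIMM44 had its highest values in depleted cells. Inclusion was 1.97, 0.781 and 1.16% in shControl untreated, 2.20, 5.20 and 2.77% in shRNF113A untreated, 1.5, 2.04 and 0.473% in shControl Cisplatin and 6.28, 4.21 and 2.72% in shRNF113A Cisplatin libraries. The groups did not overlap in either depletion comparison. Neither difference passed the test across all events (+2.09 points, adjusted p = 0.719, and +3.06 points, adjusted p = 0.212, edgeR).

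At the 7 pairs without AG at 1 or both acceptors the long form was nearly absent. Its reads were 18 of 13387 at RPS24, a ribosomal protein gene, 46 of 11300 at CNBP, 23 of 2788 at GMFB and 3 of 2441 at UIMC1. They were 25 of 1481 at CYTH2, 1 of 899 at SLC22A3 and 1 of 605 at CEP170B. Mean inclusion was below 2% at each of these pairs, with CYTH2 the highest at 1.61%.

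The test for each comparison asked whether the ratio of long-form to short-form reads differed between 2 groups of 3 libraries, with a term for each library, fitted over all alternative 3′ splice site events. Upon depletion of RNF113A in untreated cells, none of the 552 tandem events was called (edgeR, adjusted p under 0.05), where 37 of 4554 events of any gap were called (0.812%). The lowest adjusted p was 0.220 and 11 events had an unadjusted p under 0.05. DESeq2 and limma also called 0, and they called 0 of the 4554 events of any gap. A quasi-binomial test, with a spread per event that was moderated across events, was added after the data were seen. It called 1 of the 445 tandem events it could test, ZZZ3, and 73 of 2254 events of any gap (3.24%). The median absolute difference was 2.23 points, and the median difference was −0.318 points, with 244 events higher and 307 lower upon depletion. Differences exceeded 10 points at 42 events and 20 points at 3.

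Upon depletion in Cisplatin-treated cells, none of the 535 tandem events was called by edgeR, where 125 of 4665 events of any gap were called (2.68%). The lowest adjusted p was 0.140 and 9 events had an unadjusted p under 0.05. DESeq2 and limma called 0 as well, where they called 10 and 0 events of any gap. The quasi-binomial test called 0 of 431 tandem events, where it called 182 of 2361 of any gap (7.71%). The median absolute difference was 1.84 points, with 270 events higher and 265 lower. At 25 events it exceeded 10 points and at 2 events 20 points.

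With Cisplatin in control cells, edgeR called none of the 538 tandem events, where 25 of 4579 of any gap were called (0.546%). The lowest adjusted p was 0.288, with 8 events at an unadjusted p under 0.05. DESeq2 and limma called 0 tandem events, where they called 2 and 1 events of any gap. The quasi-binomial test called 0 of 447 tandem events, where it called 60 of 2321 of any gap (2.6%). The median absolute difference was 2.10 points and 313 events were lower against 225 higher with Cisplatin.

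With Cisplatin in depleted cells, edgeR called none of the 523 tandem events, where 113 of 4566 of any gap were called (2.47%). The lowest adjusted p was 0.133, with 18 events at an unadjusted p under 0.05. DESeq2 and limma called 0 tandem events, where they called 7 and 0 events of any gap. The quasi-binomial test called 0 of 420 tandem events, where it called 182 of 2286 of any gap (7.96%). The median absolute difference was 2.32 points, with 256 events higher and 267 lower. Whether the effect of Cisplatin differed with depletion was tested as an interaction over the 12 libraries. None of 488 tandem events was called, where 2 of 3860 of any gap were (0.0518%). The lowest adjusted p was 0.136 and 16 events had an unadjusted p under 0.05. DESeq2 and limma called 0 tandem events and 0 events of any gap. The quasi-binomial test called 0 of 458 tandem events, where it called 4 of 2779 of any gap (0.144%).

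The size of difference that could be seen was read from the intervals. Tandem events held a median of 448 to 527 reads over the 6 libraries of a comparison, against 875 to 1017 reads for other alternative 3′ splice sites. The half-width of the 95% interval for a difference had a median of 8.27 to 8.81 points. That interval lay within 10 points of 0 at 187 of 445 tandem events upon depletion in untreated cells (42.0%), 186 of 431 with Cisplatin present (43.2%), 190 of 447 for Cisplatin in control cells (42.5%) and 167 of 420 in depleted cells (39.8%). It lay within 20 points of 0 at 351, 344, 374 and 340 of them, in the same order. The width was computed from the reads and inclusion level of each event and from its spread between libraries, moderated across events. The weight of each was not tested. Restricting the count to events with a mean inclusion of 5 to 95% left 404 to 438 tandem events per comparison, again with 0 called. Of events of any gap, 30 of 1832 were called upon depletion in untreated cells and 108 of 1905 in Cisplatin-treated cells. For Cisplatin, 40 of 1794 were called in control cells and 108 of 1883 in depleted cells.

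Separation of the libraries was counted without a model. The 3 libraries of a group did not overlap those of the other at 62 of 552 events upon depletion in untreated cells (11.2%; 12.8% of events of any gap), 27 of them higher and 35 lower. Upon depletion in Cisplatin-treated cells it was 43 of 535 (8.04%; 15.2% of any gap), 11 higher and 32 lower. The count was 54 of 538 for Cisplatin in control cells (10.0%; 12.7% of any gap), 12 higher and 42 lower. For Cisplatin in depleted cells it was 52 of 523 (9.94%; 16.1% of any gap), 25 higher and 27 lower.

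The best-read pairs gave the tightest values. PCBP2, a poly(C)-binding protein, carries a TAGCAG acceptor at chr12:53862558-53862563 with 1187 to 2990 reads per library. Its inclusion was 88.5, 87.7 and 86.8% in shControl untreated, 87.6, 85.5 and 87.1% in shRNF113A untreated, 84.3, 86.1 and 85.4% in shControl Cisplatin and 84.6, 83.7 and 86.8% in shRNF113A Cisplatin cells. In control cells all 3 Cisplatin libraries were lower than all 3 untreated ones. The difference was −2.37 points (95% interval −3.80 to −0.949), with an adjusted p of 0.814 by edgeR and 0.0902 by the quasi-binomial test.

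The other best-read pairs varied by a few points between groups. Group means ranged from 75.5 to 78.6% at SDCBP, from 78.8 to 80.0% at CAST, the calpain inhibitor, and from 59.0 to 62.7% at SHC1, a receptor tyrosine kinase adaptor. They ranged from 39.6 to 42.9% at H2AFY, which encodes the histone macroH2A, from 39.1 to 40.7% at LINC00493, from 84.8 to 86.3% at ASPH and from 73.6 to 76.2% at FKBP8. At EPN1 they ranged from 60.4 to 62.5%, and at GSPT1, the translation release factor eRF3a, from 82.4 to 83.0%. NOLC1, a nucleolar phosphoprotein, had its highest mean in Cisplatin-treated control cells (59.9%) and its lowest in Cisplatin-treated depleted cells.

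None of the 12 best-read pairs was called in any comparison or in the interaction, and none had an unadjusted p under 0.05. Here the data bounded the effect closely: all 12 intervals lay within 10 points of 0 in each comparison. The farthest bound was 6.04 points for depletion in untreated cells, 6.22 for depletion with Cisplatin, 7.61 for Cisplatin in control cells and 6.94 in depleted cells. DESeq2, limma and the quasi-binomial test called none of them either.

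**Figure D3:**
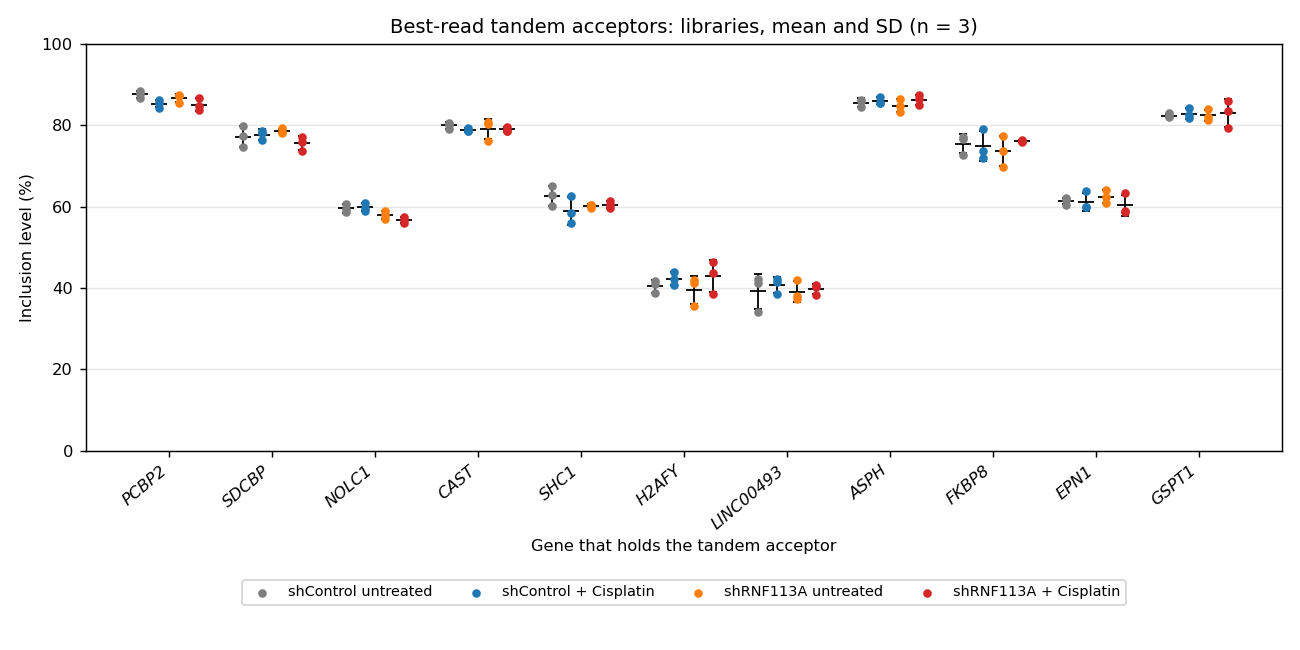
Percentage of upstream AG use (inclusion level) at 11 of the best-read tandem acceptor pairs in each library (points), coloured by group, with group mean and SD (n = 3). Each pair keeps its own level in the 4 groups, with means over all libraries from 39.7% at LINC00493 to 86.2% at PCBP2, and no pair passed the test.

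Members in genes of splicing, DNA damage, cell death and signalling lists numbered 23 at 21 genes, 2 of them also among the best-read pairs. None was called in any comparison or in the interaction. By comparison, 0, 0, 0 and 2 of the 23 had an unadjusted p under 0.05, and 1 had in the interaction, and the lowest adjusted p was 0.423. The interval lay within 10 points of 0 at 17 pairs upon depletion in untreated cells, at 16 upon depletion with Cisplatin and at 13 for Cisplatin in either kind of cell.

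Among the splicing genes, SF3B2, a subunit of the SF3b complex at the branch point, has an AAGCAG acceptor at chr11:65823003-65823008 with 380 to 650 reads per library. Its inclusion was 95.2, 94.9 and 95.7% in shControl untreated, 96.4, 94.9 and 95.9% in shRNF113A untreated, 96.3, 93.9 and 95.5% in shControl Cisplatin and 93.1, 93.8 and 93.2% in shRNF113A Cisplatin cells. The last 3 libraries lay below all others. Their difference from untreated depleted cells was −2.41 points (edgeR adjusted p = 0.423).

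RBFOX2, a regulator of alternative exons, had lower inclusion in the Cisplatin-treated depleted cells, at 21.6, 23.3 and 27.0% against 37.1, 33.1 and 33.8% in untreated depleted cells. In control cells it was 27.6, 28.6 and 43.9% untreated and 29.8, 27.6 and 28.8% with Cisplatin. The difference in depleted cells was −10.7 points (95% interval −19.6 to −1.80), with an adjusted p of 0.430 by edgeR and 0.120 by the quasi-binomial test. SRSF11, with 32 to 60 reads per library, had the largest difference of the set, +17.1 points with Cisplatin in control cells (19.4, 23.1 and 29.0% against 47.5, 45.9 and 29.4%, adjusted p = 0.742).

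Levels at other splicing genes lay closer together. Group means ranged from 76.6 to 80.7% at SRSF10, from 32.7 to 35.7% at FUBP1, from 45.7 to 48.6% at EWSR1, from 40.8 to 45.1% at CELF1 and from 92.4 to 92.9% at TIA1. CLK2, a kinase of SR proteins, held 2 pairs with means of 72.5 to 77.7% and 66.5 to 70.2%.

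In the DNA damage list, LIG1, the DNA ligase of replication, had means of 65.8% in untreated and 72.3% in Cisplatin-treated depleted cells. The difference was +6.43 points (95% interval 1.03 to 11.8), with an adjusted p of 0.507 by edgeR and 0.160 by the quasi-binomial test. TIMELESS, of the replication fork protection complex, ranged from 84.6 to 87.8%. BRCA1 held 2 pairs, with group means of 69.4 to 77.7% at the TAGCAG pair and 73.5 to 83.0% at the AAGCAG pair. In the other lists BCL2L12 stayed at 89.9 to 91.6%, IGF1R ranged from 68.6 to 76.3% and TSC2 from 45.4 to 56.0%.

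The pairs with the lowest p-values, by edgeR or by the quasi-binomial test, were picked after their values were seen and are given as a description. ZZZ3 encodes a zinc finger protein of a histone acetyltransferase complex. It had the lowest edgeR p for depletion in untreated cells, for Cisplatin in control cells and in the interaction. PCBP2, described above, had the lowest quasi-binomial p for Cisplatin in control cells. The acceptors of ZZZ3 (CAGTAG) and DEF8 (CAGCAG) are printed because their differences were among the largest.
ZZZ3 (chr1:78047568-78047597, minus strand): gtatgtggtcttatttttCAGTAGgtttac
DEF8 (chr16:90015804-90015833, plus strand): tggggtggcttctccctgCAGCAGgtgccg
Inclusion at ZZZ3, from 29 to 56 reads per library, was 90.7, 83.5 and 85.5% in shControl untreated and 67.1, 62.9 and 72.8% in shRNF113A untreated cells. With Cisplatin it was 70.9, 68.8 and 65.8% in shControl and 83.3, 78.6 and 89.3% in shRNF113A cells. Each perturbation alone went with lower inclusion and both together with values that overlapped the untreated controls.

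The difference at ZZZ3 upon depletion in untreated cells was −19.0 points (95% interval −29.9 to −8.14). Its adjusted p was 0.220 by edgeR and 0.0446 by the quasi-binomial test. Cisplatin in control cells gave −18.1 points (edgeR adjusted p = 0.288), a comparison that shares the untreated control libraries with the first. The interaction was 34.2 points (95% interval 17.9 to 50.6), with an adjusted p of 0.136 by edgeR and 0.101 by the quasi-binomial test.

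DEF8, from 16 to 50 reads per library, had 64.6, 67.9 and 68.9% in shControl untreated, 53.2, 56.5 and 64.6% in shRNF113A untreated, 72.9, 69.1 and 66.5% in shControl Cisplatin and 40.7, 43.4 and 59.0% in shRNF113A Cisplatin cells. The lower values in depleted cells amounted to −21.8 points with Cisplatin (95% interval −37.3 to −6.29). The adjusted p was 0.286 by edgeR and 0.0901 by the quasi-binomial test. At CHCHD6, which encodes a mitochondrial cristae protein, the Cisplatin-treated depleted cells gave 0 of 49 upstream reads, which allows a share of up to 6.12%. The other groups had means of 8.65 to 13.3%, and the difference upon depletion with Cisplatin was −12.4 points (edgeR adjusted p = 0.140).

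SLC35G1 had 100% inclusion in all 3 untreated depleted libraries and 82.8, 90.6 and 89.6% with Cisplatin (−12.4 points, adjusted p = 0.133), from 11 to 33 reads per library. In control cells it was 81.2, 91.4 and 100% untreated and 100, 100 and 92.3% with Cisplatin, so that the untreated controls spanned the values of the treated depleted cells. MRE11A, a nuclease of double-strand break repair, had 92.4, 93.3 and 90.4% in untreated depleted cells and 100, 98.4 and 96.3% with Cisplatin. In control cells it was 94.0, 95.1 and 98.8% untreated and 92.4, 97.6 and 94.6% with Cisplatin. The difference in depleted cells was +6.17 points (95% interval 1.55 to 10.8), with an adjusted p of 0.243 by edgeR and 0.104 by the quasi-binomial test.

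**Figure D4:**
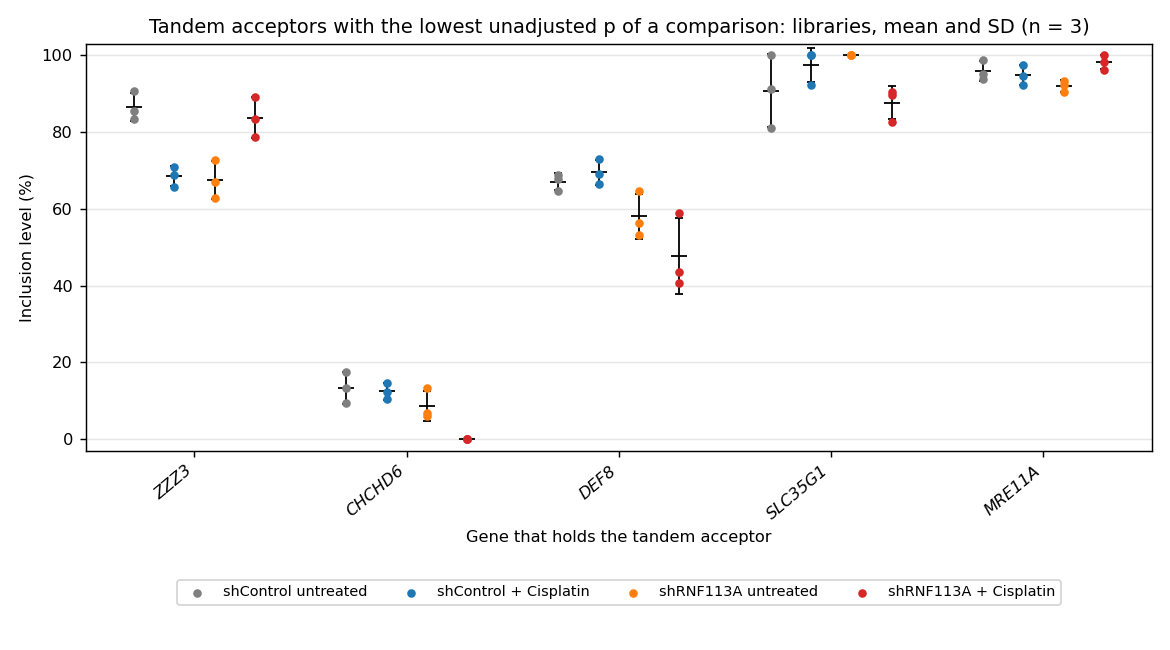
Percentage of upstream AG use (inclusion level) in each library at 5 of the pairs with the lowest p-values, coloured by group, with group mean and SD (n = 3). At ZZZ3 the shControl Cisplatin and shRNF113A untreated libraries (62.9 to 72.8%) lie below the other 6 libraries (78.6 to 90.7%); these pairs were picked after their values were seen.

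Many host genes changed in level. Of 519 host genes tested, with edgeR at an adjusted p under 0.05, depletion changed 127 in untreated cells (24.5%; 27.4% of all genes tested), 72 up and 55 down. In Cisplatin-treated cells it changed 249 (48.0%; 42.9% of all genes), 107 up and 142 down. Cisplatin changed 316 in control cells (60.9%; 55.0% of all genes) and 324 in depleted cells (62.4%; 60.2% of all genes). Changes of at least 2-fold were found in 14 (2.70%; 8.66% of all genes), 17 (3.28%; 12.3% of all genes), 59 (11.4%; 19.8% of all genes) and 83 (16.0%; 23.1% of all genes) hosts, in the same order. Hosts had to be expressed in the 6 libraries of at least 1 comparison to pass the read filter.

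Events in hosts that changed at least 2-fold were compared with events in the other hosts. Their median absolute difference was 1.81, 1.15, 3.37 and 1.89 points over 13, 12, 44 and 58 events, against 2.21, 1.82, 2.02 and 2.30 points in other hosts. The largest of these medians was for Cisplatin in control cells. No test was made of these medians.

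Intronic reads took a larger share in the host genes of depleted cells. The median intronic share of reads over the hosts was 6.07, 5.66 and 5.82% in shControl untreated and 7.93, 8.47 and 7.81% in shRNF113A untreated libraries. With Cisplatin it was 6.68, 5.50 and 9.18% in shControl and 12.7, 12.9 and 13.5% in shRNF113A libraries. The depleted libraries lay above the control libraries in both comparisons. For 3 libraries against 3 an exact permutation test cannot go below p = 0.10, so none was made. Over all genes the shares were 4.69 to 5.30%, 6.58 to 7.48%, 4.75 to 8.06% and 11.3 to 12.2% for the 4 groups in the same order.

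Genes of proteins that recognise or use the 3′ splice site were taken as a list of 50, RNF113A included. Depletion in untreated cells changed 5 of them, 4 up and 1, RNF113A, down (10.0%; 27.4% of all genes), with a median log2 fold change of 0.04. In Cisplatin-treated cells it changed 12, 7 up and 5 down (24.0%; 42.9% of all genes), with a median of −0.02. The balance there depended on processing. It was 5 up and 9 down with DESeq2 size factors, 6 and 10 with DESeq2 and 6 and 7 with counts of either strand. With no filter on low counts it was 5 and 5, and with a replicate block 7 and 6. Cisplatin changed 25 in control cells, 22 up and 3 down (50%; 55.0% of all genes, median 0.21), and 25 in depleted cells, 20 up and 5 down (50%; 60.2% of all genes, median 0.15). Few changes were large: 1, 2, 8 and 8 genes were called at 1.5-fold or more. In the interaction 0 of 50 were called by edgeR, with 5 at an unadjusted p under 0.05, where 652 of 15352 genes were called.

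These counts leaned on single libraries. Without shControl untreated replicate 2 the depletion counts were 8 in untreated (3 up, 5 down) and 20 in Cisplatin-treated cells (11 up, 9 down). Without shRNF113A untreated replicate 1 or 2 the count in untreated cells was 3 or 1. That shControl replicate stood apart at SF3B1, the branch point subunit, with 8042 normalised counts against 15950 and 12840 in the other 2, and replicate 2 with Cisplatin had 7251 against 14410 and 13570. SF3B1 was not called in any comparison, nor was SF1, which binds the branch point first.

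For the U2AF heterodimer, which binds the pyrimidine stretch and the AG, U2AF2 rose upon depletion in untreated cells by 0.45 (SE 0.12, adjusted p = 0.0126), a call lost without shRNF113A untreated replicate 2 (adjusted p = 0.0529). Without shControl untreated replicate 2, which had 11520 normalised counts of U2AF2 against 16390 and 16760, the rise was 0.30 (adjusted p = 0.00635). U2AF1, the subunit that contacts the AG, had 3410, 3988 and 3250 normalised counts in Cisplatin-treated control cells and 2743, 2894 and 2550 in Cisplatin-treated depleted cells. It fell by 0.34 on the log2 scale (SE 0.08, adjusted p = 0.00501). Its paralogue U2AF1L4 rose upon depletion by 0.59 (adjusted p = 0.00307) and, with Cisplatin, by 0.63 (adjusted p = 0.00112). ZRSR2, the related protein of minor introns, rose with Cisplatin by 1.37 in control and 1.21 in depleted cells (adjusted p = 3.9e-07 and 9.4e-07). Upon depletion in untreated cells ZRSR2 rose by 0.32 (adjusted p = 0.0380), a call lost without shControl untreated replicate 2 (0.106), among other settings.

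Among second-step factors, SLU7, which acts in the choice of AG, rose with Cisplatin. Its normalised counts were 2652, 2653 and 2385 in untreated and 3829, 4358 and 3902 in Cisplatin-treated control cells, and 2665, 2467 and 2684 against 3913, 3810 and 4366 in depleted cells. The log2 fold changes were 0.67 (SE 0.08, adjusted p = 2.1e-05) and 0.68 (adjusted p = 1.6e-05). Upon depletion they were 0.03 and 0.04 (adjusted p = 0.795 and 0.688), so that SLU7 differed between treatments and was not called between shRNAs.

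PRPF18, its partner in the second step, rose with Cisplatin by 0.37 in control cells (adjusted p = 0.00226). In depleted cells the rise was 0.26 (adjusted p = 0.0186), a call lost without any 1 of 5 libraries: shControl Cisplatin replicate 1 (0.0519), shRNF113A untreated replicate 1 (0.0632) or 2 (0.0833) and shRNF113A Cisplatin replicate 1 (0.0994) or 2 (0.0578). DESeq2 on all libraries did not call it either (0.21, adjusted p = 0.0510). The helicase DHX38 rose by 0.80 and 0.99 with Cisplatin (adjusted p = 4.5e-04 and 7.3e-05) and by 0.55 upon depletion with Cisplatin (adjusted p = 0.00823). DHX8, the helicase that frees the finished mRNA, rose by 0.31 and 0.32 with Cisplatin (adjusted p = 0.00271 and 0.00168). CDC40 rose by 0.31 in control cells (adjusted p = 0.00425). In depleted cells CDC40 rose by 0.25 (adjusted p = 0.0128), a call lost without shRNF113A untreated replicate 2 (0.0597) or without shRNF113A Cisplatin replicate 1 (0.0589) or 2 (0.0703).

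Of the other factors, CWC27, a cyclophilin-like protein of the spliceosome, fell most with Cisplatin, by 1.30 in control and 1.59 in depleted cells on the log2 scale (adjusted p = 3.1e-06 and 6.0e-07). DHX15, which takes spliceosomes apart, fell by 0.76 and 0.88 (adjusted p = 1.7e-05 and 4.4e-06). RBM22 rose by 0.86 and 0.64 (adjusted p = 0.00129 and 0.00705) and SF3A3, of the U2 particle, by 0.67 in control cells (adjusted p = 0.00184). XAB2 rose by 0.54 and 0.75 with Cisplatin (adjusted p = 5.7e-04 and 3.5e-05). Upon depletion XAB2 rose by 0.34 in untreated cells (adjusted p = 0.0237) and by 0.55 with Cisplatin (adjusted p = 9.3e-04). The call in untreated cells was lost without shControl untreated replicate 1 (0.0699) or shRNF113A untreated replicate 2 (0.103). BCAS2 rose by 0.67 and 0.39 with Cisplatin (adjusted p = 1.6e-04 and 0.00681) and fell by 0.52 upon depletion with Cisplatin (adjusted p = 0.00182). CACTIN rose by 0.60 upon depletion with Cisplatin (adjusted p = 7.5e-04) and by 0.51 with Cisplatin in depleted cells (adjusted p = 0.0010). CWC27 also fell by 0.44 upon depletion with Cisplatin (adjusted p = 0.014), a call lost without shRNF113A Cisplatin replicate 3 (0.0653). Any link between these changes and the use of tandem acceptors was not tested.

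**Figure D5:**
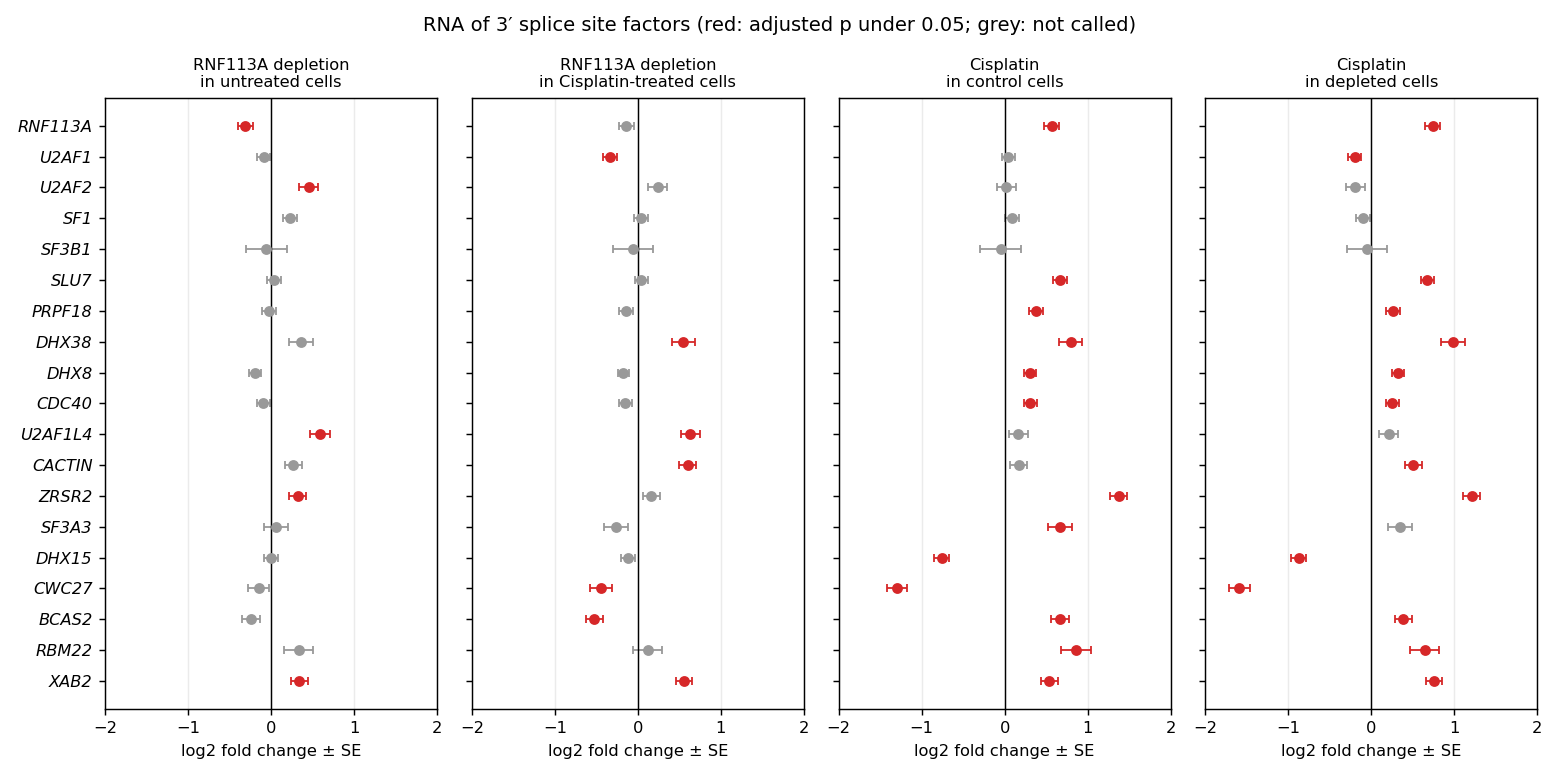
log2 fold change with its SE of RNF113A and of other named 3′ splice site factor genes in the 4 comparisons, with red points at an adjusted p under 0.05 (edgeR) and grey points not called. SLU7 is called in both Cisplatin panels (0.67 and 0.68) and in neither depletion panel (0.03 and 0.04), and CWC27 has the lowest value (−1.59).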

How the data were processed

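The libraries were poly(A) stranded RNA libraries sequenced in paired ends. The authors aligned reads to hg19 with STAR 2.5.2b and deposited the unscaled count of read pairs on each gene and, from rMATS, raw reads of the long and short form of each alternative 3′ splice site, with no normalization. They also deposited counts from HTSeq on exons and on whole genes, from which intronic shares were taken as the whole-gene count less the exon count. The deposited columns of p-values, FDR and inclusion differences were not used. The splicing table does not name its libraries within a group, which are called a, b and c. Reads that reach only a few bases past a junction may be placed at either acceptor, and this was not tested.

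Ratios of forms were tested with edgeR 4.0.16 in R 4.3.3 (quasi-likelihood, a term for each library, Benjamini-Hochberg over all alternative 3′ splice site events of the comparison) on events with at least 10 reads in each library. DESeq2 1.42.0 and limma 3.58.1 were alternatives. A quasi-binomial test, chosen after seeing the data, covered events with at least 20 reads of the rarer form and gave the 95% intervals. Gene counts were tested with edgeR on 15352 genes in 1 fit of the 4 groups with TMM scaling. Normalised counts of single genes were divided by the size factors of DESeq2. Tests were tried on simulated data. Summaries and exact intervals used Python 3.11.15 and scipy 1.17.1. Depth was 33859097 to 56071514 read pairs per library, and 5 of 20892 read cells listed in more than 1 comparison differed. Sequences and annotation came from GRCh37 with GENCODE, and 556 of 556 pairs with a matched gene lay in that gene on its strand.

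The members and lists were chosen with earlier results of these data known. Named pairs were the called ones (none), the 12 with the most reads in the poorest library at 10 to 90% inclusion, and those in listed genes with 20 reads per library at 5 to 95%. Of these, 9 were printed with their sequence, and 1 is counted but not reported here. Factor genes were named from a set of 10 or for a change of at least 1.5-fold. The stop codon pairs, the pairs lacking an AG and the pairs of lowest p were added after their values were seen. Deviations of equally numbered libraries from their group mean were correlated across 15352 genes (18 relations). Between untreated and Cisplatin-treated control cells r was 0.378 to 0.667, and these libraries were taken as pairs. For the other pairs of groups r was −0.111 to 0.173, and these were not. The main gene fit held no term for the pairs, so its results for Cisplatin in control cells are unpaired. Only the replicate block, fitted over all 4 groups, held a term for the replicate number. Alternatives were other filters, scalings, tests, fold limits, a replicate block and fits that each left out 1 library.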

Additional observations from a re-analysis of the deposited data

How the results depend on the processing

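None of the tandem acceptors was called under any of the 81 planned settings of the event tests. Among these, the settings that added a limit of 0.1 or 0.2 on the inclusion difference to the main calls could only return 0. They therefore add nothing. Leaving out each library in turn gave 0 to 0 calls in all 4 comparisons and the interaction. The quasi-binomial test, added after seeing the data, called 1 event, ZZZ3, upon depletion in untreated cells; the cause was not tested. DESeq2 called 0, 10, 2, 7 and 0 events of any gap in the 4 comparisons and the interaction, and limma 0, 0, 1, 0 and 0, so their count of 0 tandem events says little. The quasi-binomial test called 73, 182, 60, 182 and 4, of 2254, 2361, 2321, 2286 and 2779 tested. Of 2854 recomputed differences of named pairs, 2853 stayed uncalled, and 170 had the other sign with none called. Dropping the division by form length moved 15 of 152 levels beyond 1 SD, by at most 1.02 points.

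No paired analysis was possible because the splicing table does not name its libraries. For the factor genes, a replicate block called 9 genes upon depletion in untreated cells in place of 5, where the numbers do not pair the libraries, and 13, 28 and 26 in the other 3 comparisons; it moved no other count by over 1.5 times. A limit of 2-fold left 0, 0, 2 and 2 genes in the 4 comparisons. Leaving out each library in turn gave 1 to 8, 8 to 20, 21 to 26 and 18 to 28 genes. Of 1292 recomputed values of single factor genes, 1235 kept their call and direction, 33 lost the call, 24 gained one and 0 reversed.

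The 95% interval of a difference had a median half-width of 8.27 to 8.81 points over the 420 to 447 events that the quasi-binomial test covered in a comparison. The weight of reads, inclusion level and spread in that width was not tested.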
